A study of Rattus norvegicus with 8 samples.

Results

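The caspases Casp1, Casp2, Casp6, Casp8, Casp9 and Casp12 were measured in CA3 neurons of the rat hippocampus after brain injury. They were taken by gene name from the array, 6 of 18365 gene names, and were read by 7 of the 41012 probes besides controls. Casp9 had 2 probes and each other gene had 1.

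Male Sprague-Dawley rats received a moderate fluid percussion injury, a sham injury or no treatment (naïve), and in the injured and sham rats the brains were taken 24 h later. Pyramidal neurons of the CA3 subfield were cut out by laser from sections stained with Fluoro-Jade, which marks degenerating neurons. In injured rats, unstained neurons were called surviving and stained neurons were called dying, so that these names rest on the stain alone. Each pool held approximately 600 neurons from several rats, and each of the 4 groups had 2 pools, on 1 single-colour array each. By the methods, unstained neurons were taken only next to stained ones, so that both kinds came from the same brains, and which pools shared rats is not given in the sources used here.

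Caspases are proteases made as inactive precursors, so that an RNA level does not give the activity of the enzyme. The initiators Casp8 and Casp9 start the death receptor pathway and the mitochondrial pathway, Casp2 is an initiator activated in the PIDDosome, and the executioner Casp6 cuts structural and nuclear proteins. Casp1 and Casp4 are inflammatory caspases, Casp1 matures interleukin-1β in the inflammasome, and Casp12 lies beside them on the chromosome and was first described in stress of the endoplasmic reticulum.

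Values are log2 of the background-corrected signal over the median of the array, so that 0 is the signal of the median probe. A probe was called well above background where Agilent Feature Extraction marked it so. Between 20191 and 29345 probes were well above background per array, and the median signal lay between 16.4 and 52.6. The number of arrays limits the precision, and p-values reflect the spread between pools. The naïve and sham arrays lay on one slide and the surviving and dying arrays on another, read under another extraction protocol. Injury therefore cannot be told apart from slide and protocol, while surviving against dying and sham against naïve were compared within a slide.

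The captured material carried neuronal markers on every array. Of 10 markers of pyramidal neurons, 10 were well above background on 7 arrays and 9 on the array of dying pool 1, where Grik4 was not. Markers of other cells were present as well: every array had 6 of 6 oligodendrocyte markers well above background and 6 or 7 of 7 astrocyte markers. In a captured pool, fewer cells of a type and less RNA per cell cannot be told apart.

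The 2 dying pools differed more from each other than the pools of the other groups did. Over 15250 probes well above background on all 8 arrays, Pearson's r between replicates was 0.966 in naïve, 0.985 in sham, 0.976 in surviving and 0.892 in dying pools. The array of dying pool 1 was also the dimmest of its slide. Its median signal was 19.2, against 52.6 in dying pool 2 and 52.2 and 48.2 in the surviving pools. It had 24057 probes well above background, against 27995 in dying pool 2 and 29345 and 27079 in the surviving pools. The part of this in the difference between the dying pools was not tested. Nefl, a neurofilament subunit, stood at 1.01 in dying pool 1 and 6.01 in dying pool 2, against 7.14 and 6.25 in the surviving pools. For the caspases, dying pool 1 is therefore named where a value rests on it.

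Casp2 (transcript NM_022522) was the member with the clearest difference between control and injured rats. It stood at 5.75 and 5.47 (naïve), 6.64 and 6.54 (sham), 4.37 and 4.61 (surviving) and 4.50 and 4.62 (dying), well above background on all 8 arrays. All 4 pools of injured rats lay below all 4 control pools, sham lay above naïve, and surviving and dying pools overlapped.

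Against sham, Casp2 fell in dying neurons by 2.03 on the log2 scale (SE 0.42, 2 arrays per group, limma adjusted p = 0.00754) and in surviving neurons by 2.10 (SE 0.41, limma adjusted p = 0.0168). The median over all tested probes also lay below 0, at -0.46 for dying and -0.43 for surviving neurons, and relative to it the differences of Casp2 were -1.57 and -1.68. With scaling to the 75th percentile these medians were 0.26 and 0.36, and the differences of Casp2 were -1.30 and -1.32. Direction was kept under all 19 alternatives in both comparisons. The adjusted p was under the threshold of 0.05 in 14 of 19 for dying neurons (range 0.0038 to 0.504) and in 11 of 19 for surviving neurons (range 0.00641 to 0.912). In surviving neurons the call was lost when either sham array or either surviving array was left out, with differences between -1.98 and -2.22 and adjusted p between 0.106 and 0.14 by limma, and also with the 75th percentile (-1.32, 0.0598), quantile normalization (-1.10, 0.117), normexp (-1.05, 0.912) and scaling by probes above background on every array (-1.13, 0.088). In dying neurons it was lost without either sham array, at differences of -1.98 and -2.08 and adjusted p of 0.0702 and 0.0519, with quantile normalization (-0.84, 0.132), with normexp (-2.27, 0.504) and with the scaling named last (-1.02, 0.0711).

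Between surviving and dying neurons, Casp2 differed by -0.07 (SE 0.42, limma adjusted p = 0.943), with the sign turned to 1.21 under normexp background correction. Sham was above naïve by 0.98 (SE 0.40, limma adjusted p = 0.882), and relative to the median of all tested probes, 0.37, by 0.62.

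**Figure D1:**
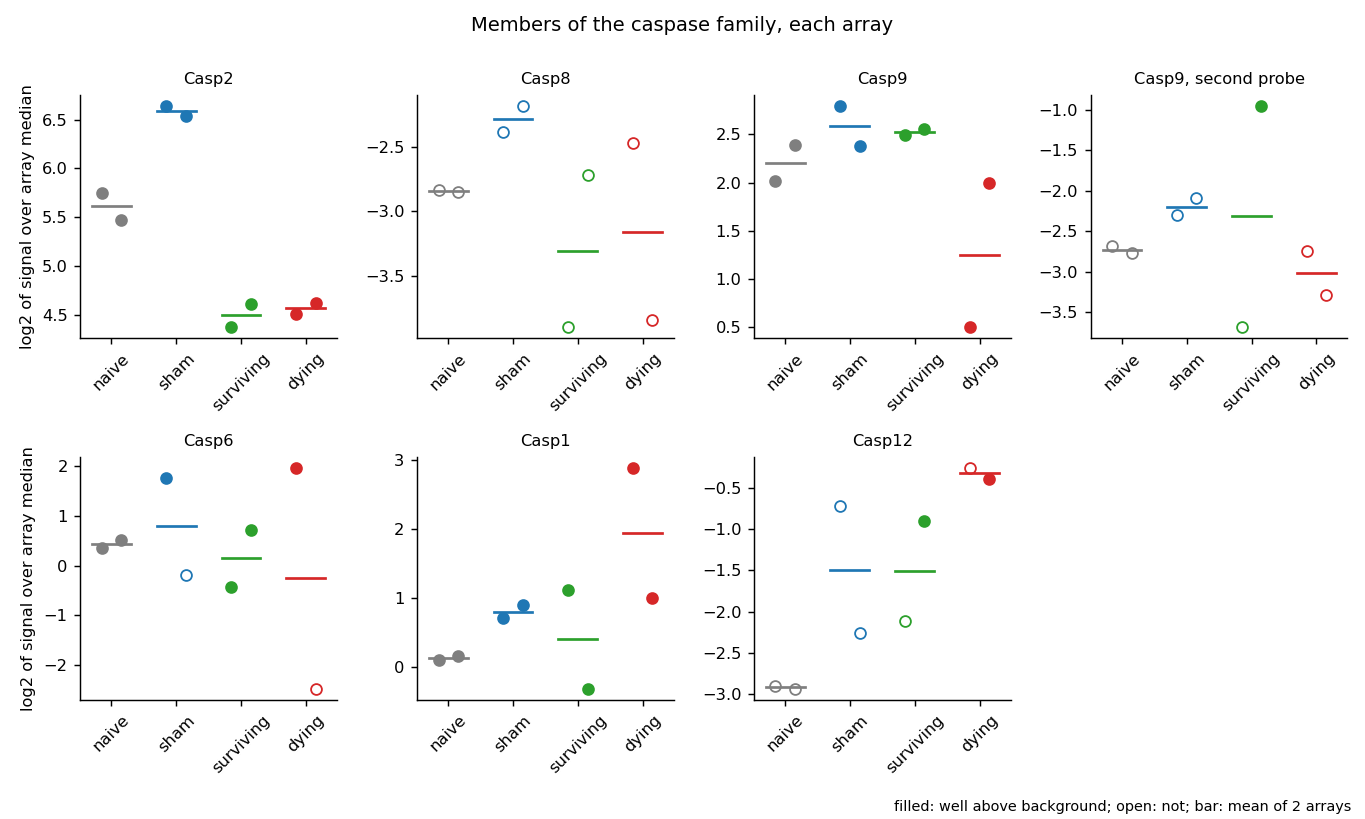
Log2 of signal over the array median (vertical axis, scaled separately in each panel) for the 7 probes of the 6 caspases in naïve, sham, surviving and dying pools. Each point is an array, filled where the probe was well above background, and the bar is the mean of 2 arrays; Casp2 separated the 4 injured from the 4 control pools, and Casp8 had no filled point.

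Casp9, the initiator activated on the apoptosome, was lowest in dying neurons. Its brighter probe (transcript NM_031632) gave 2.02 and 2.39 (naïve), 2.80 and 2.38 (sham), 2.50 and 2.56 (surviving) and 0.50 and 1.99 (dying), well above background on all 8 arrays. Both dying pools lay below every other pool, and the distance came mostly from dying pool 1.

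Surviving was above dying by 1.28 (SE 0.57, limma adjusted p = 0.242), which did not pass the threshold. The difference was 0.54 without dying pool 1 and 2.03 without dying pool 2, where limma's adjusted p was 0.0285 (range over 19 alternatives 0.0285 to 0.657). Dying differed from sham by -1.34 (SE 0.56, limma adjusted p = 0.0835), or -0.88 relative to the median of all tested probes. Without dying pool 2 it was -2.09 (limma adjusted p = 0.0109, range over 19 alternatives 0.0109 to 0.747) and without dying pool 1 -0.60. Surviving differed from sham by -0.06 (SE 0.57, limma adjusted p = 0.946), and the sign was positive at 0.72 with the 75th percentile and at 0.61 with quantile normalization.

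The second Casp9 probe, of the same transcript, gave -2.69 and -2.77 (naïve), -2.30 and -2.09 (sham), -3.69 and -0.95 (surviving) and -2.75 and -3.29 (dying). It was well above background on the array of surviving pool 2 alone and was not tested, so it neither bears out nor opposes the first probe.

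Casp8, the initiator of the death receptor pathway (transcript NM_022277), was not well above background on any of the 8 arrays. Its signals of -2.83 and -2.85 (naïve), -2.38 and -2.18 (sham), -3.90 and -2.72 (surviving) and -2.47 and -3.85 (dying) therefore give no level and no fold.

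Casp6, the executioner among the members, cuts lamins and, in neurons, is known for its part in axon degeneration. It (transcript NM_031775) gave 0.36 and 0.51 (naïve), 1.77 and -0.18 (sham), -0.43 and 0.72 (surviving) and 1.97 and -2.48 (dying). The highest and the lowest value were those of dying pools 1 and 2, and the array of dying pool 2 and that of sham pool 2 were not well above background. All 4 groups overlapped.

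Surviving and dying differed in Casp6 by 0.40 with an SE of 1.32 (limma adjusted p = 0.893), and the sign turned to -1.83 without dying pool 2. Surviving against sham gave -0.65 (SE 1.32, limma adjusted p = 0.748), turned to 0.13 with the 75th percentile. Dying against sham was not tested, since 1 array of each group was well above background.

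Casp1, the protease of the inflammasome, was highest in dying pool 1. It (transcript NM_012762) gave 0.10 and 0.16 (naïve), 0.70 and 0.90 (sham), 1.12 and -0.32 (surviving) and 2.89 and 1.0 (dying), well above background on all 8 arrays. Both dying pools lay above the sham and naïve pools, and surviving pool 1 lay above dying pool 2, so that surviving and dying overlapped.

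Dying was above sham in Casp1 by 1.14 (SE 0.72, limma adjusted p = 0.215), and by 1.61 relative to the median of all tested probes. Without dying pool 2 it was 2.09 (limma adjusted p = 0.0337, range over 19 alternatives 0.0337 to 0.84) and without dying pool 1 0.19. With scaling by probes above background on every array, chosen after seeing the data, it was 2.15 (limma adjusted p = 0.0381), and with normexp 0.15. Surviving against dying gave -1.54 (SE 0.72, limma adjusted p = 0.262). Without dying pool 2 this was -2.49 and limma's adjusted p 0.0407 (range over 19 alternatives 0.0407 to 0.854), and without dying pool 1 it was -0.60. Against sham, surviving neurons gave -0.40 (SE 0.72, limma adjusted p = 0.715) or 0.02 relative to the median, positive at 0.38 with the 75th percentile.

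Casp12 was dim throughout. It (transcript NM_130422) gave -2.90 and -2.93 (naïve), -0.72 and -2.26 (sham), -2.12 and -0.90 (surviving) and -0.25 and -0.39 (dying). The 2 dying pools were the highest of the 8, but only the arrays of surviving pool 2 and dying pool 2 were well above background, and no comparison of Casp12 was tested. On the sham arrays the dimmest probe with that mark had a value of -0.30 and -0.15, so that no lower bound of the fold over sham above 1 could be given.

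Of the 7 probes of the members, 4 were tested between surviving and dying neurons, 3 between dying and sham, 4 between surviving and sham and 4 between sham and naïve. None of the 4 was called between surviving and dying neurons, where limma called 0.0% of all 27391 tested probes (0 at the adjusted threshold, 5896 at an unadjusted p under 0.05). Of these 4 probes, 1, that of Casp9, was higher in surviving neurons without overlap, against 30.0% of all tested probes, and 0 were lower without overlap, against 21.7%.

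Between dying and sham, 1 of 3 was called, against 44.1% of 25623 probes. Casp1 was higher without overlap, 1 of 3 against 30.8%, and Casp2 and Casp9 were lower without overlap, 2 of 3 against 45.3%. Between surviving and sham, 1 of 4 was called, against 18.9% of 26905 probes, with 0 of 4 higher without overlap against 28.0% and 1 of 4 lower, Casp2, against 48.8%. Between sham and naïve, 0 of 4 members and 0.0% of 20676 probes were called by limma (0 probes, 997 at an unadjusted p under 0.05), and the members' differences lay between 0.36 for Casp6 and 0.98 for Casp2. The 2 comparisons with sham share the sham arrays.

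A filter after that of the methods was also applied, with the ratio of surviving over dying in place of the ratios to sham, and without the division by the median of a gene, which cancels in a ratio. It keeps probes well above background on all 4 arrays of surviving and dying pools and allows a spread of up to 1.5-fold between replicates. It then asks for a difference of over 2-fold in either direction. Of the members, Casp1, Casp2 and Casp9 were well above background on the 4 arrays, and Casp2 alone passed the replicate rule. Its ratio of surviving over dying was 0.954, so that 0 members were called, against 4.94% of 21253 probes. Casp1 was kept out by both groups, with replicates 3.73-fold apart in dying and 2.71-fold in surviving pools, and Casp9 by the dying pools, which were 2.81-fold apart.

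**Figure D2:**
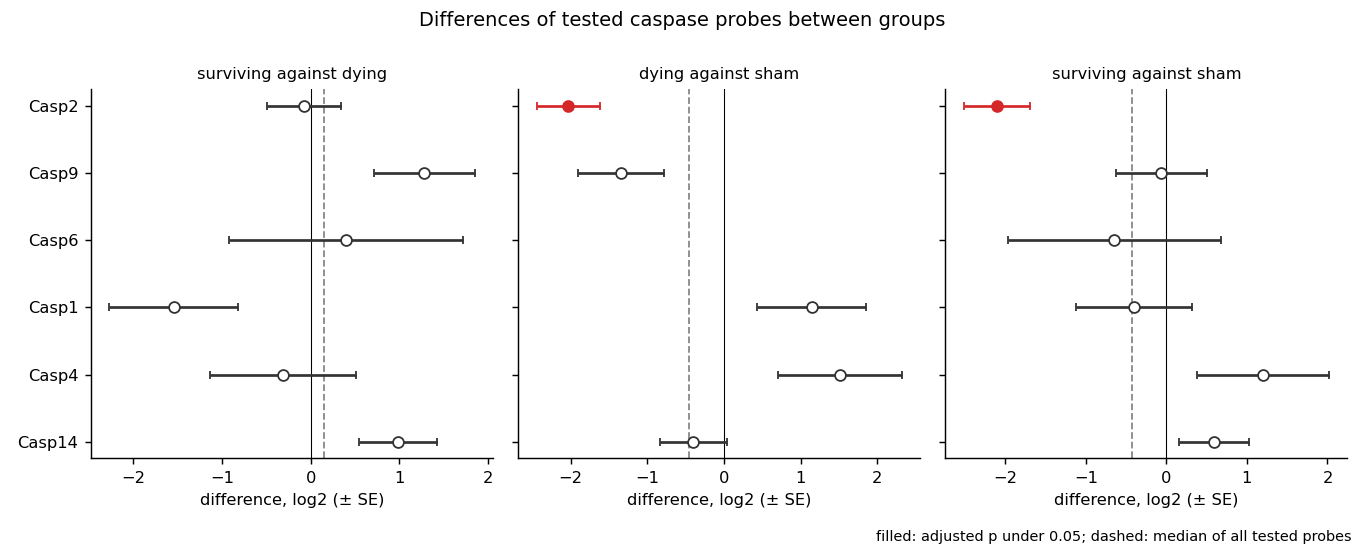
Log2 differences with standard errors (horizontal axis) of the caspase probes with a gene name that were tested between surviving and dying, dying and sham, and surviving and sham pools, 2 arrays per group. Filled points passed an adjusted p of 0.05, and the dashed line is the median of all tested probes; Casp2 passed against sham in both injured groups, and Casp14 was not well above background in sham.

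Casp4 and Casp14, outside the 6, were read as well, and Casp10 had no probe with a gene name. Between surviving and dying neurons, 0 of these 2 genes were called, 1 was higher in surviving neurons without overlap (30.0% of all tested probes) and the median difference was 0.34.

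Casp4, which senses bacterial lipopolysaccharide inside the cell (transcript NM_053736), gave -0.33 and 0.99 (naïve), -0.25 and 1.87 (sham), 2.02 and 2.01 (surviving) and 3.0 and 1.66 (dying). It was well above background on all arrays but that of sham pool 1, the surviving pools lay above sham and naïve, and dying pool 2 lay below sham pool 2. Surviving was above sham by 1.20 (SE 0.82, limma adjusted p = 0.315) and dying by 1.52 (SE 0.81, limma adjusted p = 0.154), or 1.63 and 1.98 relative to the median of all tested probes. Leaving out 1 array gave 0.14 to 2.26 and 0.45 to 2.58, the lowest of each without sham pool 1. With scaling by probes above background on every array, dying against sham was 2.52 (limma adjusted p = 0.0381, range over 18 alternatives 0.0381 to 0.705). Surviving against dying gave -0.31 (SE 0.82, limma adjusted p = 0.861), turned to 0.36 without dying pool 1.

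Casp14, known from the skin (transcript XM_234878), gave -1.67 and -1.03 (naïve), -0.63 and -0.50 (sham), 0.01 and 0.03 (surviving) and -0.96 and -0.98 (dying), well above background on the 4 arrays of injured rats alone. The dying pools lay below the sham signals and the surviving pools above them, but those signals were not well above background.

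Surviving was above dying in Casp14 by 0.99 (SE 0.44, limma adjusted p = 0.241), a ratio of 1.98 that stayed under the 2-fold rule. Surviving over sham was at least 1.19-fold, the mean surviving signal being set, on each sham array, against the dimmest signal marked well above background or the probe's own, whichever was higher. For dying against sham no size can be given, and relative to the median of all tested probes the signals differed by 0.0632, so that the side of sham is not settled.

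**Figure D3:**
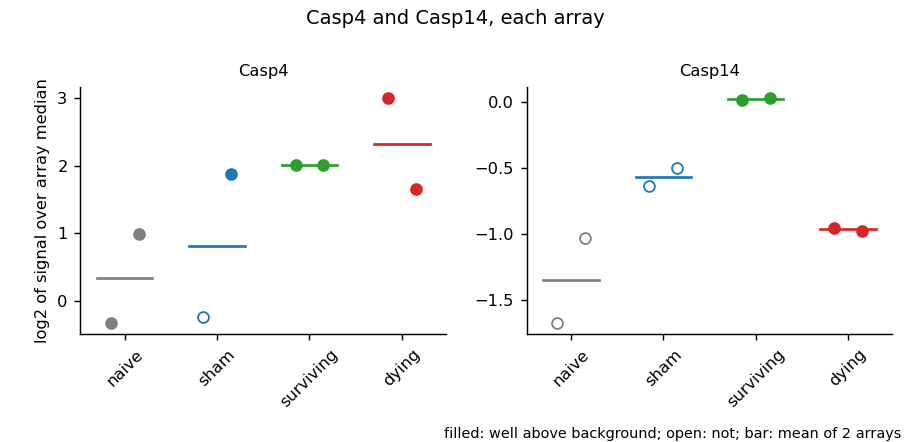
Log2 of signal over the array median (vertical axis, scaled separately in each panel) for Casp4 and Casp14 in naïve, sham, surviving and dying pools. Each point is an array, filled where well above background, and the bar is the mean of 2 arrays; both surviving pools of Casp14 lay above both dying pools, and its sham points are open.

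Casp1, Casp4 and Casp12 follow each other on chromosome 8 of the RefSeq annotation of assembly GRCr8, with an uncharacterised long non-coding RNA gene between each pair. Of the 8 caspase genes described, RefSeq promoters of 6 were at hand, and those of Casp1 and Casp12, the 2 of these 3 neighbours with a promoter at hand, are printed for the 250 bases before the start, on the plus strand. The windows are chr8:10872580-10872829 for Casp1 and chr8:10926938-10927187 for Casp12. Capitals mark the match to GAAA, any 2 bases and GAAA, the core of the interferon-stimulated response element, read on the other strand.
Casp1: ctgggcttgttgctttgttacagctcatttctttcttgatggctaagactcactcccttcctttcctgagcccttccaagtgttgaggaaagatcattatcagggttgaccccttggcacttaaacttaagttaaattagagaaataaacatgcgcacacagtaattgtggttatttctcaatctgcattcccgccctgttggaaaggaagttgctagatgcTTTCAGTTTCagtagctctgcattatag
Casp12: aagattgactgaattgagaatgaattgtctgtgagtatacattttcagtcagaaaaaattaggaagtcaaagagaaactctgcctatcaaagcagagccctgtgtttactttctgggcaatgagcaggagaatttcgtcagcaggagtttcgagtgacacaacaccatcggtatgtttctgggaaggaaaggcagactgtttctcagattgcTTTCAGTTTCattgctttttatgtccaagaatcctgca

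The match lay at bases -28 to -19 from the start of Casp1 and at -38 to -29 from that of Casp12. It was in 2 of the 6 caspase promoters and, on either strand, in 1140 of 33469 promoter windows of the same length, 3.41%. The motif was picked after the windows of Casp1 and Casp12 had been read. The longest run shared by the 2 windows had 14 bases, TGCTTTCAGTTTCA, found in 3 promoter windows in all, the other being that of LOC102557277, the gene between Casp4 and Casp12. The match is a description of the letters.

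The partners of the caspases were read from lists. Of 13 genes of the apoptosome, PIDDosome and inflammasome and of the receptor adaptors and regulators Fadd, Tradd, Ripk1 and Cflar, 11 were tested between surviving and dying neurons and 0 were called by limma (as for all probes). Their median difference was 0.22, against 0.14 over all tested probes. The middle gene was Tradd at -0.56 without dying pool 1 and Cflar at 0.07 without dying pool 2. The sign of this median therefore rests on dying pool 1. Without overlap, 3 were higher and 3 lower in surviving neurons, shares near the 30.0% and 21.7% of all tested probes.

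On the apoptosome side, the released cofactor Cycs (cytochrome c) stood at 9.98 and 10.06 (naïve), 10.79 and 10.27 (sham), 8.55 and 8.54 (surviving) and 7.10 and 7.54 (dying). It was lower in every injured pool than in every control pool, and lower in dying than in surviving pools. Cycs fell by 3.21 in dying against sham (limma adjusted p = 0.00228), and surviving against dying gave 1.22 (limma adjusted p = 0.176). Apaf1, the scaffold that activates Casp9, gave 0.61 between surviving and dying without overlap (limma adjusted p = 0.525) and fell by 2.06 in dying against sham (limma adjusted p = 0.015).

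On the inflammasome side, the adaptor Pycard, which recruits Casp1, stood at 0.49 and 1.03 (naïve), 1.65 and 1.67 (sham), 2.0 and 1.8 (surviving) and 4.56 and 3.83 (dying). Both dying pools lay far above the other 6. Pycard rose by 2.53 in dying against sham (limma adjusted p = 0.00521), and surviving against dying gave -2.29 (limma adjusted p = 0.109). The sensor Nlrc4 gave -3.08 (limma adjusted p = 0.248), a size set by surviving pool 1 at -3.97, under the dimmest signal well above background on its array, and Tradd, an adaptor of the tumour necrosis factor receptor, -0.39 (limma adjusted p = 0.657) between surviving and dying, while Nlrp3 was not well above background on any array. The sensor Nlrp1a gave 0.54 without overlap (limma adjusted p = 0.63). By the bound described for Casp14 it was at least 1.74-fold higher in dying and 2.53-fold higher in surviving neurons than in sham. Pidd1, which activates Casp2 in the PIDDosome, was added after its values were seen. Opposite to Casp2, it was at least 3.08-fold and 2.58-fold higher in dying and surviving neurons than in sham. Between surviving and dying it gave -0.26 (limma adjusted p = 0.829), with -0.76 without dying pool 1 and the sign turned to 0.25 without dying pool 2. Cradd, also of the PIDDosome, did not rise with Pidd1. Against sham it gave -0.845 in dying and -0.25 in surviving neurons, with overlap in both (limma adjusted p of 0.285 and 0.793).

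Of 8 death receptors and ligands, 3 were tested between surviving and dying neurons, with 0 called, 1 higher and 1 lower without overlap (30.0% and 21.7% of all probes), and a median of -0.55. Tnfrsf21 gave 2.03 (limma adjusted p = 0.125) and fell by 1.80 in dying against sham (limma adjusted p = 0.0262). Tnfrsf1a, the main receptor of tumour necrosis factor, gave -0.80 (limma adjusted p = 0.475) and rose by 1.83 in dying against sham (limma adjusted p = 0.0394). Its difference between surviving and dying was -0.32 without dying pool 1 and -1.29 without dying pool 2.

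Of 9 inhibitors of apoptosis and their antagonists, 7 were tested between surviving and dying neurons, with 0 called, 3 higher and 1 lower without overlap (30.0% and 21.7% of all probes), and a median of 0.29. The middle gene was Diablo at 0.47 without dying pool 1 and Birc6 at -0.05 without dying pool 2. The sign of this median therefore rests on dying pool 2. Aven gave 0.78, Diablo 0.49 and Htra2 0.29, with limma adjusted p of 0.393, 0.549 and 0.746. Diablo and Htra2 are released from mitochondria and relieve the inhibition of caspases. Birc5 gave -1.02 (limma adjusted p = 0.35).

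Of 14 caspase substrates, 10 were tested between surviving and dying neurons, with 0 called, 0 higher and 3 lower without overlap (30.0% and 21.7% of all probes), and a median of -0.11. Sptan1, without a value in dying pool 1, could not count as free of overlap. Without dying pool 1 the middle genes were Dffb at -0.18 and Parp1 at 0.49. Among genes with a value, the middle gene without dying pool 2 was Dffb at -0.55. The sign of this median therefore rests on dying pool 1. Il1b, the precursor that Casp1 cuts, stood at -1.82 and -2.94 (naïve), -1.15 and -2.21 (sham), 1.13 and 0.19 (surviving) and 2.55 and 3.14 (dying). It was well above background on the 4 injured arrays alone, and dying lay above surviving. By the bound described for Casp14, Il1b was at least 8.39-fold higher in dying and 1.85-fold higher in surviving neurons than in sham, and surviving against dying gave -2.18 (limma adjusted p = 0.129). Gelsolin (Gsn) gave -1.22 and Rock1 -0.49 between surviving and dying (limma adjusted p of 0.274 and 0.605).

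**Figure D4:**
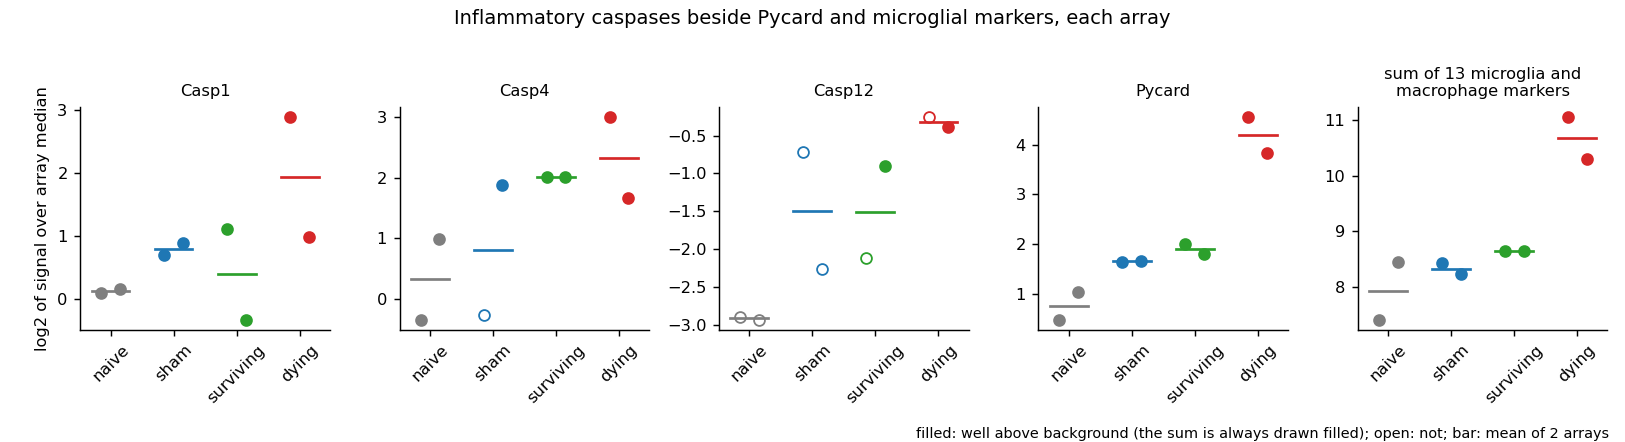
Log2 of signal over the array median (vertical axis, scaled separately in each panel) for Casp1, Casp4, Casp12 and Pycard, and log2 of the summed scaled signal of 13 microglia and macrophage markers, in naïve, sham, surviving and dying pools. Each point is an array, filled where well above background (the sum is drawn filled), and the bar is the mean of 2 arrays; Pycard and the marker sum were highest in both dying pools.

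The summed markers of microglia and macrophages were highest in the dying pools, as were C1qa, C1qb, Tyrobp, Cd68 and Cd74 among the 13 genes. Of 14 markers, 13 had a probe, and their summed scaled signal was 171 and 351 (naïve), 344 and 300 (sham), 400 and 403 (surviving) and 2130 and 1260 (dying). C1qb gave the largest part of the sum in the dying pools, and Ptprc was well above background on 1 array and Cx3cr1 on 3. Between surviving and dying neurons 12 were tested and 0 called, 7 were lower in surviving without overlap (21.7% of all tested probes) and the median was -1.59. Against sham, 7 of 11 rose in dying neurons by limma, against 15.1% of all tested probes called higher.

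C1qb gave -2.50, Tyrobp -2.27 and Ctss -2.11 between surviving and dying (limma adjusted p of 0.113, 0.116 and 0.118). Against sham, Ctss gave 0.15 in dying and -1.97 in surviving neurons (limma adjusted p of 0.828 and 0.0375). Aif1 likewise gave -0.14 and -1.59 (limma adjusted p of 0.83 and 0.0574). For both, the distance from sham lay mostly in the surviving pools. The part of microglia and macrophages in the levels of Casp1, Casp4, Casp12, Pycard and Il1b was not tested.

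Other cell types were read in the same way between surviving and dying neurons, with 0 called in each list. Of 5 neutrophil markers, 4 were tested, with S100a8 at -3.23, S100a9 at -2.38 and Mpo at 0.48 without overlap and a median of -1.11. In dying pool 1 Mpo stood at -1.38, under the dimmest signal well above background on that array, -1.35, so that its size is not exact. Of 6 endothelium markers, 4 were tested and 4 were lower in surviving neurons without overlap (21.7% of all tested probes), among them Kdr at -1.95, Vwf at -1.90 and Cldn5 at -1.05, with a median of -1.48. Of 7 astrocyte markers, 6 were tested with a median of -0.08, with Slc1a2 at 1.30 and Aqp4 at 0.46 higher and Aldh1l1 at -1.66 and Slc1a3 at -0.68 lower without overlap. Of 6 oligodendrocyte markers, 6 were tested with a median of -0.09, with Cnp at 0.38, Mog at -1.49 and Mag at -0.26.

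Markers of pyramidal neurons went the other way: of 10 tested, 7 were higher in surviving than in dying neurons without overlap (30.0% of all tested probes), with a median of 1.19. Nefl gave 3.19, Grik4 3.17 and Camk2a 2.04. These sizes rest on dying pool 1, without which they were 0.69, 0.15 and 0.98. The median also rests on it: the middle genes of the list were then Snap25 at 0.44 and Neurod2 at 0.65, and Slc17a7 turned to -0.42. The list genes Mog, Slc1a3, Apaf1 and Nlrp1a likewise gave -0.36, -0.0855, 0.17 and 0.20 without that pool. Tnfrsf1a, Kdr, Cnp and Mpo gave -0.32, -1.25, 0.16 and 0.17 without it. Without dying pool 2 instead, Mag, Tradd and Aqp4 gave -0.10, -0.22 and 0.26. The part of the lower pyramidal markers in the low Casp9 of dying pool 1 was not tested.

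**Figure D5:**
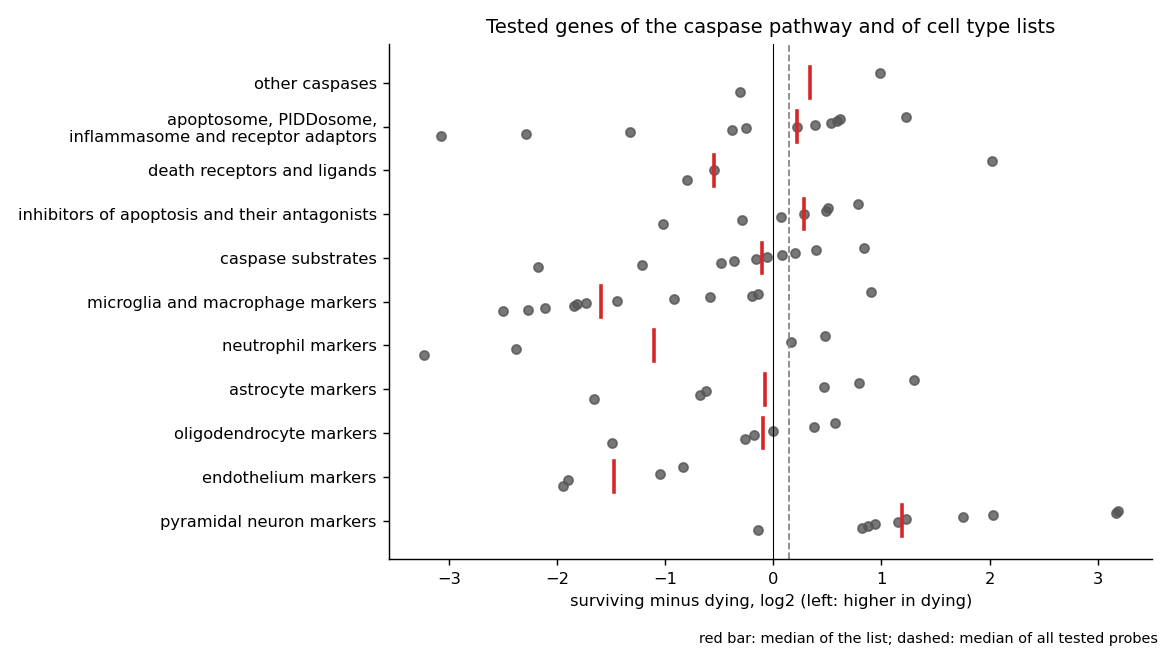
Log2 difference of surviving minus dying (horizontal axis) for each tested gene of the lists of caspase partners and of cell type markers (vertical axis). Each point is a gene, the red bar is the median of the list and the dashed line is the median of all tested probes; the medians of microglial and endothelial markers lay to the left and that of pyramidal markers to the right.

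The genes whose pattern over the 8 arrays was most like that of a caspase were named as a likeness only, for members well above background on at least 6 arrays. The search ran over 6529 probes with a gene symbol, each measured above background on every array, and the 8 arrays share groups and slides. For Casp2 they were Casp8ap2, Gnb1 and Pdcl, with Pearson's r of 0.987, 0.983 and 0.983. For Casp9 they were Kcnk4 at 0.99, Tysnd1 at 0.989 and Ppp1r13b at 0.987. For Casp1 they were Syde1 at 0.976, Centa2 at 0.967 and H2a at 0.951, and for Casp6 Abhd14a at 0.967, Epc2 at 0.937 and Neu2 at 0.933.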

How the data were processed

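RNA of neurons captured by laser was measured on 8 Agilent whole-genome rat arrays. The authors deposited processed intensities of single spots, made with Agilent Feature Extraction 9.1.3.1 per the file headers corrected for background and spatial trends, beside uncorrected mean and background intensities and marks for spots well above background. The signal values of the series table, deposited by the authors, were these intensities divided by a constant for each array and served as an alternative. Non-uniform spots were dropped, replicate spots averaged and signals divided by the array median as in the methods, values under 0.01 were set to 0.01 and log2 was taken.

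The 4 groups were fitted to the 8 arrays with limma 3.58.1 in R 4.3.3, with 4 residual degrees of freedom before moderation. A probe was tested where both arrays of either group were well above background, with two-sided p-values, Benjamini-Hochberg adjustment per comparison and a threshold of 0.05. Lmna lacked both dying values and Sptan1 that of dying pool 1, their spots being non-uniform. The script was tested on simulated data. Lists of partners and markers were read from the brightest probe of a gene, and up to 3 genes per list and direction were named, those with the largest difference between surviving and dying pools without overlap. The members and lists were chosen with earlier results of these data known. Some caspases are not reported here. Of the 8 caspase transcripts described, 7 were found in the RefSeq annotation of GRCr8. Alternatives covered scaling, background correction, filters, the deposited series values, the replicate number as a block, the arrays in the fit and leaving out each array.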

Additional observations from a re-analysis of the deposited data

Results flagged for a closer look

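The surviving and dying pools of Casp14 lay on opposite sides of both sham pools. It was above sham in both surviving pools and below it in both dying pools, with a surviving minus dying difference of 0.99 on the log2 scale (SE 0.44, limma adjusted p = 0.241). It was well above background on the 4 arrays of injured rats and on none of the control arrays. Sham was not well above background, so that the side of sham rests on signals without a level. Sham cancels between the effects of the 2 injured groups, so that this difference is also that of their effects against sham, and it did not pass. With the 75th percentile, Casp14 in dying against sham turned to 0.33, and relative to the median of all tested probes it was 0.0632, so that being below sham depends on the scaling. Surviving against sham was 0.59 (limma adjusted p = 0.353), 1.37 with the 75th percentile (0.0295) and 1.56 with scaling by probes above background on every array (0.0166), over a range of 0.0166 to 0.964 in 18 alternatives, all set against sham signals without a level.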

How the results depend on the processing

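Over 21 comparisons of caspase probes, 392 alternative values were computed: 348 kept direction and side of the threshold, 13 lost the call, 8 gained one and 23 reversed. Of the 23, 10 were under the 75th percentile or the added scaling, which shift all probes alike and leave differences relative to the all-probe median in place. Surviving against sham turned positive for Casp1 at 0.38 (75th percentile), 0.0053 (normexp) and 0.57 (scaling by probes well above background on all 8 arrays, chosen after seeing the data). In the same order Casp9 gave 0.72, 0.70 and 0.91, with 0.61 under quantile normalization. Casp6 gave 0.13 and 0.33 with the 75th percentile and the added scaling, and Casp14 dying against sham 0.33 and 0.61. Under normexp, surviving against dying gave 1.21 for Casp2 and 0.60 for Casp4. With the added scaling, sham against naïve gave -0.0628 for Casp6 and -0.0364 for Casp9. The cause of the other reversals was not tested. Of the 8 calls gained, 4 came without dying pool 2 (Casp1 and Casp9, each against surviving and sham), 3 with the added scaling (Casp1 and Casp4 in dying and Casp14 in surviving against sham) and 1 with the 75th percentile (Casp14).

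Leaving out 1 array reversed further values. Surviving against dying ranged from -0.19 to 0.0475 for Casp2, -0.98 to 0.36 for Casp4 and -1.83 to 2.62 for Casp6. Surviving against sham ranged from -1.12 to 0.32 for Casp1, -1.62 to 0.33 for Casp6 and -0.27 to 0.14 for Casp9, and sham against naïve from -0.62 to 1.33 for Casp6. The array left alone in its group is assumed to vary like the others.

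Over all probes, limma called 0 between surviving and dying (0 to 5994 leaving out 1 array, 5994 without dying pool 2), 11289 between dying and sham (3048 to 13426), 5074 between surviving and sham (253 to 8557) and 0 between sham and naïve (0 to 22). Normexp gave 0 in all 4 comparisons, with 2463 and 2551 at an unadjusted p under 0.05 for dying and surviving against sham. With probes well above background on all arrays compared, the counts against sham were 7156 and 3109. With the 4 arrays compared alone, surviving against sham gave 12161 and sham against naïve 118, and with quantile normalization the latter gave 1. Of the calls, 34.2% were higher in dying than sham and 36.1% in surviving than sham, against 59.7% and 73.4% with the 75th percentile, 56.2% and 60.3% with quantile normalization, 68.6% and 80.0% with the added scaling and 15.7% and 6.56% with probes well above background on all arrays compared. The filter after that of the methods called 1050 of the 21253 probes well above background on the 4 arrays. Without the replicate rule it called 6458 of these 21253. Casp1 and Casp9 were among the 6458, 2 of the 3 members in the 21253. It called 2440 with the smaller replicate at least 50% of the larger and 304 with normexp (0 of the members in each).

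The replicate block gave 0, 10397, 3488 and 0 calls in these 4 comparisons. Deviations of equal numbers correlated between -0.194 and 0.0715 over the 6 pairs of groups, with the lowest between surviving and dying pools. Each group gives 1 deviation per probe and which pools shared rats is not given. These values therefore cannot show whether the replicate numbers pair the samples. With the numbers of the dying pools crossed, chosen after seeing the data, the counts were 0, 10790, 3772 and 0. Slide as a block was not run because each group lay on 1 slide. Signal over background limited Casp8, Casp12 and the second Casp9 probe.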
